A study of Homo sapiens with 24 samples.

Results

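A549 and Huh7 are established human cancer cell lines, and the comparison of their untreated cells describes the baseline from which the response to the herbal extracts was measured. A549 came from a lung adenocarcinoma and Huh7 from a hepatocellular carcinoma. The members were the 14398 genes, of 14585 in the count table, whose mean exceeded 5 counts over the 6 control libraries, that is 3 replicates of untreated A549 cells and 3 of untreated Huh7 cells. The other 18 libraries of the series came from the same lines treated with an extract of one of 3 herbs (B. chinense, P. umbellatus and P. chinensis).

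The labels give the genotype of both lines as WT and name the treatment of these libraries as control. Both lines were kept in the same medium, high-glucose DMEM with fetal bovine serum, so the medium did not differ with the line. The extracts were dissolved in DMSO, and whether the control cells received DMSO is not given in the sources used here. Each cancer type was represented by a single line, so a difference between the lines cannot be told apart from a difference between lung and liver, between donors or between tumour genotypes. The labels do not say whether the replicates were separate cultures, and the p-values below then measure only the spread between these libraries, which may be technical.

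As background, hepatocytes secrete most plasma proteins, including albumin, clotting factors, complement and the apolipoproteins that carry lipids. Their identity is held by a circuit of transcription factors, among them HNF4A, the FOXA factors, CEBPA and PROX1, which bind near the genes of these secreted proteins. Fetal liver and many liver tumours also make alpha-fetoprotein. A549 cells carry mutations in STK11, SMARCA4 and KEAP1 and a deletion at the CDKN2A locus, and are often used as a model of the alveolar type 2 cell. KEAP1 marks the transcription factor NRF2 for destruction, and NRF2 switches on genes for glutathione, thioredoxin and detoxification.

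The A549 libraries summed to between 8160045 and 10616955 counts and the Huh7 libraries to between 16455709 and 24345541, so depth differed with the line. Levels are given in CPM, which are counts scaled to a common library total, after TMM normalization, and the log2 fold change is A549 minus Huh7, with its standard error (SE). A level of 3 counts in 1 library corresponded to between 0.286 and 0.374 CPM in A549 and between 0.121 and 0.179 CPM in Huh7. This was taken as the floor. Where all libraries of a line were at or under it, fitted fold changes are left out, and any fold is a bound or a ratio of counts with its interval. Intervals and floors cover counting error only. The SE was derived from the F statistic of the test. It is too small where a line had few counts, as for AHSG with 1, 4 and 6 counts in A549. Mitochondrially encoded genes took 3% to 3.49% of counts in A549 and 1.93% to 2.26% in Huh7. Correlations of log CPM between replicates of a line were 0.977 to 0.990. POLR2A, the large subunit of RNA polymerase II that every cell uses, was listed at 0 CPM in each library of A549 and at 0, 0 and 1.78 CPM in Huh7, so a value at or near 0 in this table can be a failed estimate.

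The 6 genes that mark the lines separated them without exception, and they are given as a description, since they were chosen with their values known. KRT7, a keratin of simple epithelia at chr12:52232520-52252186, was at 1649.9, 1627 and 1690.5 CPM in A549 and 0 CPM in each library of Huh7. KRT81, a hair-type keratin at chr12:52285913-52291534, was at 3029, 3171 and 3367 CPM in A549 and 0 CPM in each library of Huh7. ALDH3A1, an aldehyde dehydrogenase, was at 1307, 1299.8 and 1299 CPM in A549 and 0.341, 1.43 and 1.38 in Huh7. All 3 were high in every A549 library and at most 1.43 CPM in every Huh7 library. ALB, the gene of serum albumin at chr4:73397114-73421482, was at 0.125, 0 and 0 CPM in A549 and 4704, 4562 and 4543 in Huh7. AFP, the gene of alpha-fetoprotein at chr4:73431138-73456174, was at 0, 0.292 and 0 CPM in A549 and 2112, 2126 and 2111 in Huh7. APOB, the structural protein of very low density lipoprotein, was at 0.623, 0.195 and 0.477 CPM in A549 and 10827, 10604 and 10819.6 in Huh7. The order was the reverse of that of the A549 genes, again in every library. Over the 9 treated libraries of each line the same order held, with ALB between 2753 and 4860 CPM in Huh7 and at most 0.715 CPM in A549, and KRT7 between 1556 and 1778 CPM in A549 and at most 0.123 CPM in Huh7.

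**Figure D1:**
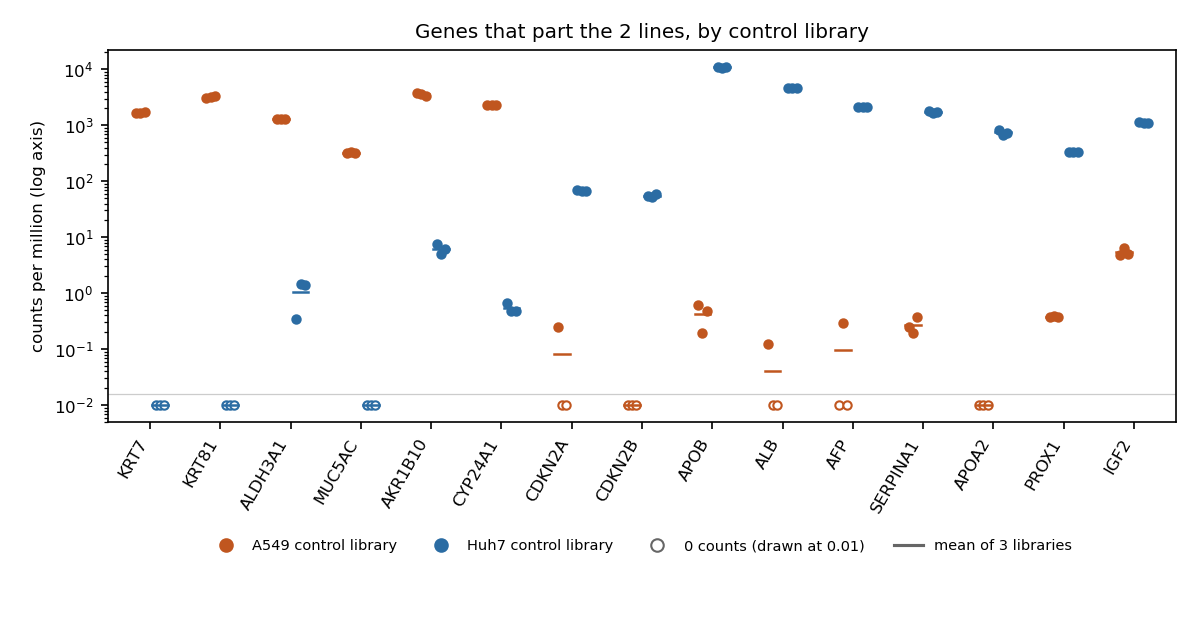
Level of 15 genes in each of the 6 control libraries, in CPM on a log axis, with 1 point per library, a line at the mean of the 3 libraries and open circles at 0.01 for libraries with 0 counts. The A549 and Huh7 points of each gene do not overlap, and for KRT7, KRT81 and MUC5AC all 3 Huh7 libraries were at 0.

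Most of the transcriptome differed between the lines. Of the 14398 genes, 10711 (74.4%) passed the test of edgeR at an adjusted p below 0.05, 5318 higher in A549 (36.9%) and 5393 higher in Huh7 (37.5%). The 3 libraries of a line did not overlap those of the other for 11190 genes (77.7%). These shares are the background for every count of a gene group below, where higher means past this test and an order of the lines is given with its log2 fold change and SE. The median absolute log2 fold change was 0.74 over all genes tested and 1.03 over the genes that passed. A change of at least 1 on the log2 scale was reached by 5513 of the genes that passed, and one of at least 3 by 1886. The median log2 fold change over all genes was -0.024. Of the 14398 genes, 593 were at the floor in A549 alone and 416 in Huh7 alone. These are the background for the members at the floor given below, and A549 had the lower depth.

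The line difference was also measured in libraries that this comparison does not use. Between the lines under B. chinense, 10348 of 14201 genes tested passed (72.9%), under P. chinensis 10910 of 14546 (75.0%), and under P. umbellatus 9118 of 14154 (64.4%). Of the genes that passed in the control libraries and could be tested there, 8960 of 10574 passed in the same direction under B. chinense and 156 in the opposite direction. Under P. chinensis these numbers were 9026 and 266 of 10694, and under P. umbellatus 7715 and 190 of 10527. Treated cells are not untreated cells, and these counts describe other libraries of the same lines rather than a repeat of the baseline. Of the 222 genes given with values here, the control libraries did not overlap for 218. For 182 of those the 9 treated libraries of each line were also apart in the same order, for 34 they overlapped, and for 2 they were apart in the opposite order. Most of these genes were chosen for their values in the control libraries, and the share over all genes was not computed. The counts therefore describe the named genes only.

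A smaller set of genes was detected in 1 line and at the floor in the other, taken as at least 50 counts in all 3 libraries of the first and at most 3 counts in all 3 of the second. This held for 196 genes in A549 (1.36%) and for 266 genes in Huh7 (1.85%). With the Huh7 counts thinned to the A549 depth the numbers were 253 and 190, so which line had more such genes moved with depth. The A549 set had a median of 20.1 CPM in A549, and 19 of its genes reached 100 CPM. The Huh7 set had a median of 11 CPM in Huh7, and 22 of its genes reached 100 CPM. The major histocompatibility complex, where alternate copies of a gene are annotated, held 5 genes of the first set and 2 of the second, and those are uncertain.

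The 10 A549 genes of highest mean CPM in this set included KRT81 and KRT7. CPLX2, a complexin that regulates vesicle fusion, was at 2270.3, 2484 and 2525 CPM in A549 and 0.0487, 0 and 0 in Huh7. MSN, the gene of moesin, which ties the membrane to actin, was at 612, 644 and 641 CPM in A549 and 0 CPM in each library of Huh7. AHNAK2 was at 723, 885 and 898 CPM against 0.146, 0.0597 and 0. These 3 genes were far above the floor in each A549 library. The others were LDHB, PAPPA, a protease of insulin-like growth factor binding proteins at 433 ± 20.2 CPM (SD, n = 3), MUC5AC, RSPO3, a Wnt agonist at 324 ± 16.2 CPM, and PMEPA1, a gene known as a brake on TGF-beta signalling, at 320.3 ± 5.11 CPM.

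The 10 Huh7 genes of highest mean CPM in the set included several secreted proteins. A2M, a plasma protease inhibitor, was at 0 CPM in each library of A549 and at 1212, 1073 and 1155 CPM in Huh7, at least 3067-fold higher in Huh7. APOA2, an apolipoprotein of high density lipoprotein, was at 0 CPM in each library of A549 and at 829, 681 and 738 CPM in Huh7, at least 2005-fold higher in Huh7. APOA1, the main protein of the same particle, was at 0.249, 0 and 0.0953 CPM in A549 and 277, 272 and 272 in Huh7. All 3 were well above the floor in every Huh7 library. MTTP, which loads lipid onto APOB, was at 0.125, 0 and 0.0953 CPM in A549 and 216, 211 and 214 in Huh7. RELN, the gene of the secreted glycoprotein reelin, was at 0 CPM in each library of A549 and at 225, 230.4 and 229 CPM in Huh7. The remaining genes of the 10 with highest CPM were ALB, AFP, MBNL3, an RNA-binding protein, MAN1A1, a mannosidase of the Golgi, and ATP2B2, a calcium pump of the plasma membrane, with means of 767 ± 11.1, 469 ± 13.8 and 194 ± 9.3 CPM.

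Among genes well detected in both lines, with a mean of at least 50 counts in each, the largest differences towards A549 were found for AKR1B10, AKR1C3, AXL, RTN4RL2, IGFBP4, TMSB4X, ITGB4, CD44, LITAF and EHD2, with log2 fold changes from 9.12 ± 0.095 to 6.31 ± 0.084 (SE). TMSB4X, the gene of thymosin beta 4, which binds actin monomers, was at 732, 735 and 744 CPM in A549 and 5.6, 6.45 and 6.32 in Huh7. IGFBP4, an insulin-like growth factor binding protein, was at 1792, 1855 and 1940.2 CPM in A549 and 10.5, 12.7 and 12.4 in Huh7. Both were higher in A549 in every library. Towards Huh7 they included IGF2, NES, VIL1, SLC16A7, ST6GAL1, CEBPA, A1CF, FGA and VTN, with log2 fold changes from -7.64 ± 0.067 to -4.87 ± 0.075. VIL1, the gene of the microvillus protein villin, was at 4.98, 8.28 and 3.72 CPM in A549 and 330.3, 321 and 324 in Huh7. NES, the gene of the intermediate filament nestin, was at 6.35, 7.69 and 6.1 CPM in A549 and 445, 470.5 and 446 in Huh7. A1CF, a cofactor of the enzyme that edits APOB mRNA, was at 13.3, 13 and 10.1 CPM in A549 and 464, 445 and 462 in Huh7. For all 3 the Huh7 libraries were the higher.

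**Figure D2:**
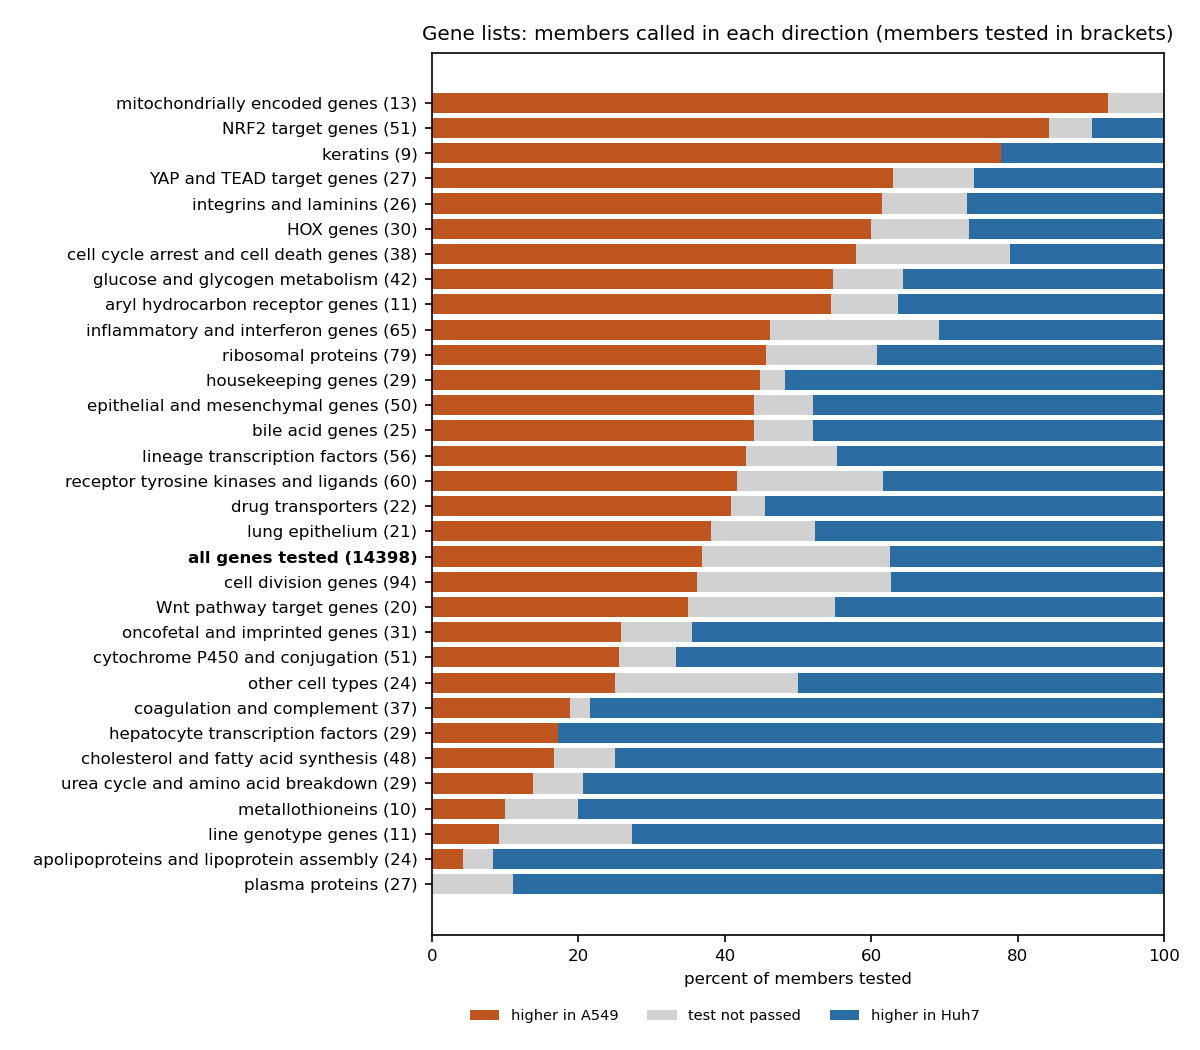
Share of each gene list that was higher in A549, higher in Huh7 or did not pass the test, in percent of the members tested, whose number stands in brackets, with all genes tested in bold. Plasma proteins and apolipoproteins lie at the bottom with almost all members higher in Huh7, and mitochondrially encoded genes and NRF2 target genes at the top with 92.3% and 84.3% higher in A549.

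Most transcription factors of the hepatocyte were higher in Huh7. Of 31 factors listed, 29 had a row and were tested, 24 were higher in Huh7, 5 were higher in A549 and 3 were at the floor in A549, and the median log2 fold change was -1.92. HNF4A, a nuclear receptor at the centre of the circuit, was at 113, 109 and 122 CPM in A549 and 443, 424 and 438 in Huh7 (log2 fold change -1.92 ± 0.048, adjusted p = 3.80e-10). The groups did not overlap. CEBPA was at 11.6, 10.1 and 8.39 CPM in A549 and 351, 405 and 412 in Huh7 (log2 fold change -5.28 ± 0.10). PROX1, a homeobox factor of liver and lymphatic endothelium, was at 0.374, 0.39 and 0.381 CPM in A549 and 336, 329.7 and 337 in Huh7 (log2 fold change -9.34 ± 0.085). Both were higher in each Huh7 library, CEBPA being well detected in A549 and PROX1 near the floor there. The nuclear receptors for bile acids followed, with NR1H4 at 0.249, 1.46 and 1.43 CPM in A549 and 191, 175 and 179 in Huh7, and NR0B2, the small partner that it induces, 0 CPM in each library of A549 and at 18.3, 19.3 and 16.3 CPM in Huh7. FOXA1 and FOXA2, which open chromatin in both lung and liver, were at 23.3 ± 2.43 and 43.7 ± 2.1 CPM in A549 and 55.1 ± 5.27 and 108.1 ± 8.42 CPM in Huh7. Among the members higher in A549 was CEBPB, at 113 ± 11.6 against 61.3 ± 14 CPM.

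Plasma proteins had the lowest median of the lists. Of 37 listed, 27 had a row and were tested, 24 were higher in Huh7, 0 were higher in A549, and 9 were at the floor in A549. The median log2 fold change was -6.90, or -6.07 with members at the floor set to their bound. The members that did not pass were CP, SAA2 and LEAP2. Summed over the list, the A549 libraries lay between 79.3 and 95.3 CPM and the Huh7 libraries between 12507 and 12936. SERPINA1, the gene of alpha-1-antitrypsin, was at 0.249, 0.195 and 0.381 CPM in A549 and 1790.3, 1627 and 1714 in Huh7 (log2 fold change -12.03 ± 0.10). TTR, the thyroid hormone carrier transthyretin, was at 0.125, 0.292 and 0.763 CPM in A549 and 232, 264 and 266 in Huh7. TF, the gene of the iron carrier transferrin, was at 26.2, 24.6 and 20.8 CPM in A549 and 636, 644 and 641 in Huh7. TF was above the floor in A549, whereas SERPINA1 was near it. RBP4, the retinol carrier, had a log2 fold change of -7.50 ± 0.071, AMBP one of -7.56 ± 0.061 and AHSG, the gene of fetuin-A, one of -9.66 ± 0.12.

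Clotting factors and complement, most of which the liver secretes, were also higher in Huh7. Of 49 listed, 38 had a row, 37 were tested, 29 were higher in Huh7, 7 were higher in A549, and 12 were at the floor in A549, with a median log2 fold change of -4.09 (-3.51 at the bound). FGA, a chain of fibrinogen, was at 17.3, 16.7 and 17.8 CPM in A549 and 540.2, 569 and 530.5 in Huh7 (log2 fold change -4.97 ± 0.053). Complement C3 was at 17.4, 17.1 and 19.4 CPM in A549 and 537, 504 and 543 in Huh7 (log2 fold change -4.86 ± 0.06), and C5 at 99.7, 84.8 and 77.6 CPM in A549 against 343, 365 and 347 in Huh7. These were higher in each Huh7 library. MASP1, a protease of the lectin pathway, was at 0 CPM in each library of A549 and at 131, 123 and 126 CPM in Huh7. The members higher in A549 included PLAU, the gene of urokinase, at 115 ± 8.34 against 1.82 ± 0.227 CPM, and CD46 and CD59, which shield the cell surface from complement, with log2 fold changes of 0.15 ± 0.038 and 2.17 ± 0.059.

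Of 29 apolipoproteins and genes of lipoprotein assembly and uptake, 24 had a row and were tested, 22 were higher in Huh7, 1 was higher in A549 and 8 were at the floor in A549. The median log2 fold change was -4.21 (-3.33 at the bound). LRP1, an endocytic receptor for remnants, was at 84.1, 86.9 and 82.6 CPM in A549 and 1959, 1944 and 1911 in Huh7 (log2 fold change -4.52 ± 0.038). LIPC, hepatic lipase, was at 0, 0.39 and 0.286 CPM in A549 and 29.4, 29.6 and 31.2 in Huh7. Both were higher in each Huh7 library, while ANGPTL4, an inhibitor of lipoprotein lipase, was the only member higher in A549, at 16.8 ± 5.81 against 3.33 ± 0.378 CPM. APOF did not pass.

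The promoters of these secreted liver genes were searched for a site of HNF4, a feature that the expression values did not use. A promoter was taken as the 250 bases before the start of the gene in RefSeq, and 11619 of the tested genes had one. The site, searched as CAAAGTCCA on both strands, was in 2 of the 55 promoters of plasma protein, clotting, complement and lipoprotein genes higher in Huh7 (3.64%), against 29 of all 11619 (0.250%). The GC content of these 55 promoters averaged 51.4% and that of all promoters 63.3%, so the sets differ in base composition, and the part of that difference in the count was not tested. Among all genes higher in Huh7 the site was in 15 of 4408 promoters (0.34%). The other motifs searched were less frequent in the 55 promoters than in all. TGACTCA, the site of AP-1, was in 1.82% against 2.70%, and TGACNNNGC, the antioxidant response element, in 5.5% against 11.7%. With 2 matches the share is imprecise, and a match describes letters, not binding. The last 200 bases before the start of AHSG and the last 100 before that of PROZ are shown because they hold the site, in capitals as it reads on the strand of the gene, with positions in GRCh38.p14.
AHSG (chr3:186612860-186613059, plus strand): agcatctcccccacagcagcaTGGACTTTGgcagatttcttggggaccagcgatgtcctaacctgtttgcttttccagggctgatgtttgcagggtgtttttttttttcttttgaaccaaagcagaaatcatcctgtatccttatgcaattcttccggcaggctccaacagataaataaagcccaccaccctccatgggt
PROZ (chr13:113158548-113158647, plus strand): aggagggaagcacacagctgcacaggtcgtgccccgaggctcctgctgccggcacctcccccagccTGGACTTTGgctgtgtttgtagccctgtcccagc
AHSG was at 0.125, 0.39 and 0.572 CPM in A549 and 428, 397 and 419.6 in Huh7. PROZ, the gene of protein Z, a vitamin K-dependent plasma protein, was at 0 CPM in each library of A549 and at 2.83, 2.98 and 2.43 CPM in Huh7, at least 7.35-fold higher in Huh7. Both genes were higher in Huh7 in every library, and PROZ was low.

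Genes of amino acid breakdown were mostly higher in Huh7 too. Of 34 genes of the urea cycle and amino acid breakdown, 29 had a row and were tested, 23 were higher in Huh7, 4 were higher in A549 and 9 were at the floor in A549, with a median log2 fold change of -2.40 (-2.30 at the bound). CPS1, which makes carbamoyl phosphate in the first step of the urea cycle, went against the list, at 148, 144 and 137 CPM in A549 and 2.78, 2.57 and 2.27 in Huh7 (log2 fold change 5.75 ± 0.088, adjusted p = 1.43e-11). GLUL, glutamine synthetase, was at 12.2, 12.5 and 15.1 CPM in A549 and 271, 289 and 279 in Huh7 (log2 fold change -4.38 ± 0.073). KYNU, kynureninase of tryptophan breakdown, was at 495 ± 12 CPM in A549 and 77 ± 5.85 in Huh7. The list was therefore not lower in A549 in every member.

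Genes of bile acid synthesis and transport were near evenly split, with 11 of 25 tested higher in A549 and 12 higher in Huh7 (27 listed, 25 with a row, 6 at the floor in A549). The exporters ABCC2, ABCC3 and ABCC4 were higher in A549, with log2 fold changes of 0.84 ± 0.045, 3.55 ± 0.073 and 1.98 ± 0.11. SLC27A2, which activates bile acid precursors and long fatty acids, was at 44.2, 43.2 and 36.9 CPM in A549 and 0.244, 0.418 and 0.567 in Huh7. The fibroblast growth factor arm that holds bile acid synthesis down was on the side of Huh7. Its hormone FGF19 was at 0 CPM in each library of A549 and at 34.8, 33.8 and 34.8 CPM in Huh7, its receptor FGFR4 at 115, 110.0 and 113 CPM in A549 against 437, 417 and 394 in Huh7, and its co-receptor KLB at 2.74, 3.31 and 3.24 CPM in A549 against 131, 118 and 126 in Huh7. All 3 were higher in each Huh7 library.

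Of 63 genes for cytochrome P450 enzymes and conjugation, 52 had a row, 51 were tested, 34 were higher in Huh7 and 13 higher in A549, with 7 at the floor in A549. The list also held a wide gap towards A549, that of CYP24A1, which inactivates vitamin D, at 2310.4, 2280.2 and 2286 CPM in A549 and 0.682, 0.478 and 0.486 in Huh7 (log2 fold change 11.72 ± 0.067, adjusted p = 8.91e-14). CYP4F11 was at 121 ± 3.18 against 1.24 ± 0.521 CPM and MGST1, a microsomal glutathione transferase, at 374 ± 8.77 against 204 ± 6.64 CPM. POR, the reductase that passes electrons to all microsomal P450 enzymes, was at 153 ± 2.83 CPM in A549 and 309 ± 10.3 in Huh7, and GSTP1 at 411 ± 18.3 and 511 ± 4.9. Of 11 genes of the aryl hydrocarbon receptor and its targets, all tested, 6 were higher in A549, 1 did not pass and 4 were higher in Huh7, the receptor itself among them. CYP1A1 was at 0.249, 0.487 and 0.191 CPM in A549 and 131, 124 and 132 in Huh7 (log2 fold change -8.18 ± 0.15). Its relative CYP1B1 was at 105, 94 and 96.7 CPM in A549 and 2.63, 2.15 and 2.75 in Huh7 (log2 fold change 5.20 ± 0.10). AHR, the receptor, was at 88.3 ± 12.6 CPM in A549 and 246 ± 2.6 in Huh7.

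The oncofetal genes higher in Huh7 included many besides AFP. Of 15 oncofetal genes, all tested, 13 were higher in Huh7 and 2 in A549, with a median log2 fold change of -2.68 (-2.54 at the bound). TRIM71, a stem cell RNA-binding protein repressed by let-7, was at 0.498, 0.195 and 1.05 CPM in A549 and 582, 607 and 599.7 in Huh7 (log2 fold change -9.69 ± 0.13). GPC3, a glypican used to diagnose liver cancer, was at 0.249, 0.779 and 0.572 CPM in A549 and 431, 405 and 392 in Huh7 (log2 fold change -9.22 ± 0.12). The members higher in A549 were HMGA1, a chromatin protein, at 927 ± 53.4 against 499.6 ± 19.4 CPM and CD24 at 516 ± 13.2 against 395 ± 16.1. Of 24 imprinted genes, 16 were tested, 7 were higher in Huh7 and 6 in A549. IGF2, the fetal growth factor at chr11:2129112-2158391, was at 4.86, 6.33 and 5.05 CPM in A549 and 1131, 1085 and 1117 in Huh7 (log2 fold change -7.64 ± 0.067, adjusted p = 7.94e-13). PEG10, a gene of retroviral origin, was at 349 ± 7.28 CPM in A549 and 1283 ± 27.6 in Huh7. TFPI2, a protease inhibitor of the matrix, was at 123 ± 6.98 CPM in A549 and 1.84 ± 0.738 in Huh7.

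Lipid synthesis was higher in Huh7 in most members. Of 24 cholesterol genes, all tested, 21 were higher in Huh7 and 2 in A549, with a median log2 fold change of -1.63. CYP51A1, the demethylase of lanosterol, was at 189, 191 and 172 CPM in A549 and 615, 616 and 622 in Huh7 (log2 fold change -1.75 ± 0.045, adjusted p = 4.40e-10). Of 25 fatty acid genes, 24 were tested, 15 were higher in Huh7 and 6 in A549. FASN, fatty acid synthase, was at 1264, 1401 and 1399.7 CPM in A549 and 2969, 2949.5 and 2864 in Huh7 (log2 fold change -1.11 ± 0.043), and SCD, the desaturase that makes oleate, at 1898, 1888 and 1859.6 CPM in A549 against 4044, 3873 and 3966 in Huh7 (log2 fold change -1.07 ± 0.029). ACLY, which supplies acetyl-CoA to both pathways, was higher in A549, at 1523, 1464 and 1492 CPM against 744, 751 and 771 (log2 fold change 0.98 ± 0.032), and so were FADS1 (log2 fold change 0.85 ± 0.037) and ELOVL1 (log2 fold change 0.32 ± 0.082).

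Markers of the lung epithelium went both ways. Of 40 genes listed, 23 had a row and 21 were tested, and those without a row, NKX2-1, SFTPC and SFTPA1 among them, were not analysed here. Of those tested, 8 were higher in A549 and 10 in Huh7, and 3 did not pass (LAMP3, SCGB3A2 and TP63), with a median log2 fold change of -0.78. The direction of this median depended on genes of low counts, since among the 13 with a mean of at least 50 counts 7 were higher in A549 and 5 in Huh7, with a median of 1.69. The summed level of the list was higher in A549, at 1337 to 1404 CPM against 410 to 442 in Huh7. SFTPB, a surfactant protein, was at 1.12, 1.27 and 1.43 CPM in A549 and 3.8, 3.1 and 2.47 in Huh7, low in both and higher in Huh7. ABCA3, the lipid pump of the surfactant-storing lamellar body, was at 60.8, 60.4 and 65.5 CPM in A549 and 1.61, 1.19 and 1.26 in Huh7 (log2 fold change 5.39 ± 0.13). Of the 7 markers of alveolar type 2 cells that were tested, 2 (ABCA3 and LPCAT1) were higher in A549 and 4 (SFTPB, SLC34A2, ETV5 and PGC) in Huh7. The gel-forming mucins of the airway set A549 apart, with MUC5AC at 319.8, 337 and 318 CPM in A549 and 0 CPM in each library of Huh7, at least 1813-fold higher in A549, and MUC5B at 232, 234 and 191 CPM in A549 and 0 CPM in each library of Huh7, at least 1223-fold higher in A549. CAV1, the coat protein of caveolae, was at 424, 407 and 417 CPM in A549 and 20.9, 25.3 and 21.8 in Huh7 (log2 fold change 4.2 ± 0.066). ETV5 was higher in Huh7, at 136 ± 2.56 against 79.1 ± 6.0 CPM. Of 39 markers of blood, endothelium, fibroblasts and bile duct, 24 were tested, 6 were higher in A549 and 12 in Huh7. Among them LYZ, the gene of lysozyme, was at 0.125, 0.39 and 0 CPM in A549 and 691, 679.5 and 722 in Huh7, and PECAM1, of endothelium, at 1.62, 1.75 and 1.91 CPM in A549 against 33.3, 36.7 and 33.7 in Huh7. Other markers of blood and endothelium, such as PTPRC and EMCN, did not pass. The summed blood markers varied between the A549 libraries, from 25.6 to 120.5 CPM. Without A549 replicate 1, 15 markers of the list were higher in Huh7. Each library came from 1 cultured line, and in bulk RNA fewer cells expressing a gene and less RNA per cell cannot be told apart.

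Keratins were higher in A549. Of 33 listed, 10 had a row, 9 were tested, 7 were higher in A549 and 2, KRT19 and KRT23, were higher in Huh7. KRT8 and KRT18, the pair of all simple epithelia, were expressed in both lines, KRT8 at 3424, 3822 and 3810.0 CPM in A549 and 2667, 2749 and 2615 in Huh7 (log2 fold change 0.46 ± 0.045), and KRT18 at 2264, 2401 and 2266 CPM in A549 against 1260.0, 1322 and 1249.8 in Huh7 (log2 fold change 0.86 ± 0.037). KRT19 was at 10.3, 16.1 and 13.9 CPM in A549 and 23.3, 26.4 and 24.5 in Huh7 (log2 fold change -0.86 ± 0.15), an order that was the opposite under 2 herbs. KRT80 was at 156, 152 and 178 CPM in A549 and 0.975, 0.776 and 0.769 in Huh7 (log2 fold change 7.39 ± 0.12). KRT86 was at 14, 12 and 15 CPM in A549 and 0 CPM in each library of Huh7. It is nearly identical to KRT81, so its share of the reads is uncertain. KRT10 was the remaining member higher in A549 (log2 fold change 1.18 ± 0.084).

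NRF2 target genes were the list most one-sided towards A549 among the nuclear genes. Of 52 listed, 51 had a row and were tested, 43 were higher in A549, 5 were higher in Huh7 and 3 did not pass (ME1, PIR and KEAP1), with a median log2 fold change of 1.17. AKR1B10, an aldo-keto reductase, was at 3699, 3665 and 3375 CPM in A549 and 7.46, 5.01 and 6.2 in Huh7 (log2 fold change 9.12 ± 0.095, adjusted p = 1.83e-12). AKR1C3, which reduces steroids and prostaglandins, was at 2134, 1999 and 1977 CPM in A549 and 7.75, 6.92 and 7.21 in Huh7 (log2 fold change 8.10 ± 0.059), and AKR1C2 at 2451, 2335 and 2279 CPM in A549 against 176, 165 and 169 in Huh7 (log2 fold change 3.79 ± 0.043). The AKR1 genes are close copies of each other and their counts can be split unevenly. TXNRD1, thioredoxin reductase, was at 1514, 1534 and 1554 CPM in A549 against 493, 505 and 479.9 in Huh7 (log2 fold change 1.64 ± 0.033). GPX2, a glutathione peroxidase, was at 515, 477 and 415 CPM in A549 and 35.1, 32.2 and 36.4 in Huh7 (log2 fold change 3.75 ± 0.085). These 5 genes were higher in each A549 library. NQO1, a quinone reductase often used as a readout of NRF2, differed little, at 1809.6, 1810.0 and 1783 CPM in A549 and 1449, 1482 and 1435 in Huh7 (log2 fold change 0.31 ± 0.029), and FTL, the light chain of ferritin, had a log2 fold change of 0.77 ± 0.03. NR0B1, an orphan nuclear receptor, was at 58.2, 63.7 and 63.2 CPM in A549 and 0 CPM in each library of Huh7. NFE2L2, the gene of NRF2 itself, was higher in Huh7, at 139.8, 134 and 137 CPM in A549 and 278, 280.5 and 282 in Huh7 (log2 fold change -1.03 ± 0.037). The other members higher in Huh7 were IDH1 (log2 fold change -1.42 ± 0.037), ABCB6 (log2 fold change -0.73 ± 0.06), GSTA4 and GSTM3.

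The antioxidant response element, the site of NRF2, was searched as TGACNNNGC on both strands. It was in 6 of the 31 promoters of NRF2 target genes higher in A549 (19.4%, those of CBR1, FECH, GCLM, GPX2, PGD and TXNRD1), against 11.7% of all promoters, with a mean GC content of 63.5% and 63.3%. Among all genes higher in A549 it was in 479 of 4230 promoters (11.3%). The list holds genes known as NRF2 targets, so the element may be part of why they are listed. No share was computed for members that were not higher in A549, so the count does not bear on the line difference. With 6 matches the share is imprecise, and functional elements can lie outside this window. The last 130 bases before the start of GCLM, GPX2 and TXNRD1 are shown because they carry the element, marked in capitals, with positions in GRCh38.p14.
GCLM (chr1:93909431-93909560, minus strand): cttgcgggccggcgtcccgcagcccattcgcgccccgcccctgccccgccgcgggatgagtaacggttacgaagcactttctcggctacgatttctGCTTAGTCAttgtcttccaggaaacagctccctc
GPX2 (chr14:64942746-64942875, minus strand): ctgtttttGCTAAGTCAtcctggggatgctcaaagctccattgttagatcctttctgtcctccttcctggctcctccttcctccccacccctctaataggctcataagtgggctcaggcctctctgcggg
TXNRD1 (chr12:104215649-104215778, plus strand): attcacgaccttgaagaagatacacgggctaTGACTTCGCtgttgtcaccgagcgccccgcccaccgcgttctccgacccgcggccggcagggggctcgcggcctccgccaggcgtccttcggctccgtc
GCLM, the modifier subunit of the enzyme that limits glutathione synthesis, was at 323, 314 and 306 CPM in A549 and 169, 177 and 168 in Huh7 (log2 fold change 0.88 ± 0.039). The element of GCLM lies closest to the start of the gene among the 3.

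Within glycolysis the lines differed in isozymes as well as in levels. Of 25 genes, all tested, 17 were higher in A549, 7 were higher in Huh7 and PDK1 did not pass, with a median log2 fold change of 0.98. GAPDH (log2 fold change 0.77 ± 0.026), PKM (log2 fold change 1.05 ± 0.028) and ENO1 (log2 fold change 0.98 ± 0.033) were higher in A549. For hexokinase, the first step, HK1 was at 67.4, 66.7 and 72.1 CPM in A549 and 0.341, 0.418 and 0.567 in Huh7 (log2 fold change 6.88 ± 0.14). HK2 was at 1.74, 1.95 and 1.81 CPM in A549 and 184, 190.4 and 188 in Huh7 (log2 fold change -6.57 ± 0.081). Every A549 library was above every Huh7 library for HK1 and below for HK2. For phosphofructokinase, PFKP was at 573, 635 and 646 CPM in A549 and 0.39, 0.478 and 0.405 in Huh7 (log2 fold change 10.13 ± 0.099), whereas PFKM (log2 fold change -1.10 ± 0.082) and PFKL (log2 fold change -0.34 ± 0.074) were higher in Huh7. For lactate dehydrogenase, LDHB was at 593, 636 and 506 CPM in A549 and 0 CPM in each library of Huh7, at least 3227-fold higher in A549, and LDHA at 952, 922 and 905 CPM in A549 against 338, 321 and 329 in Huh7 (log2 fold change 1.49 ± 0.036). Both genes were higher in A549, but LDHB alone was at 0 in Huh7. Of 8 gluconeogenic genes tested of 11 listed, 5 were higher in Huh7, 1 was higher in A549 and 2 did not pass. PC, pyruvate carboxylase, was at 83.1, 85.8 and 76.5 CPM in A549 and 326, 313 and 338 in Huh7 (log2 fold change -1.99 ± 0.053). Of 9 glycogen genes tested, 5 were higher in A549 and 3 in Huh7. SLC16A1, a lactate carrier, was at 117 ± 2.97 CPM in A549 and 204 ± 3.83 in Huh7.

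**Figure D3:**
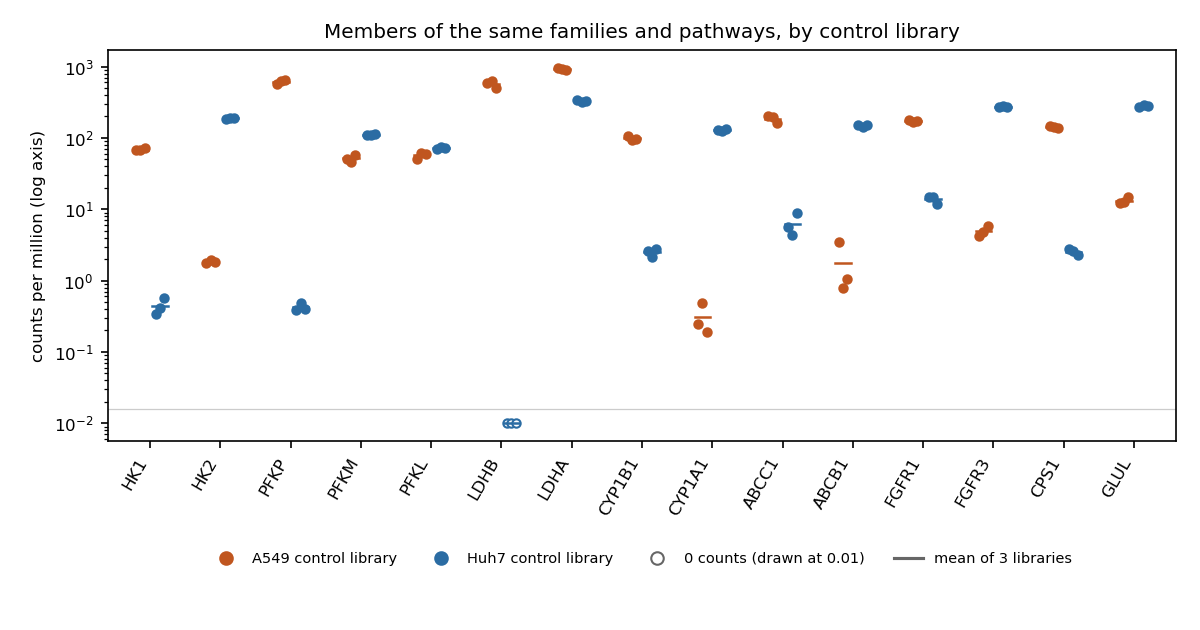
Level of 15 genes in each control library, in CPM on a log axis, with 1 point per library, a line at the mean and open circles at 0.01 for 0 counts. HK1, PFKP, LDHB, CYP1B1, ABCC1, FGFR1 and CPS1 were higher in all A549 libraries, and HK2, PFKM, PFKL, CYP1A1, ABCB1, FGFR3 and GLUL in all Huh7 libraries, while LDHA was higher in A549.

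Genes of adhesion and of the basement membrane were more often higher in A549. Of 32 integrins and laminins, 26 were tested, 16 were higher in A549, 7 in Huh7, and the median log2 fold change was 0.77. ITGA3, a receptor for laminin, was at 506, 569.6 and 560.0 CPM in A549 and 0.195, 0 and 0.324 in Huh7 (log2 fold change 10.71 ± 0.16, adjusted p = 9.35e-12). ITGB4, the chain of hemidesmosomes, was at 351, 367 and 370.3 CPM in A549 and 3.12, 2.92 and 2.96 in Huh7 (log2 fold change 6.86 ± 0.061), and LAMA5, a laminin chain, at 759, 805 and 866 CPM in A549 against 148, 159 and 153 in Huh7 (log2 fold change 2.40 ± 0.053). ITGB1, which pairs with most alpha chains, was high in both (log2 fold change 1.19 ± 0.033). Towards Huh7 stood ITGAV (log2 fold change -0.67 ± 0.063), ITGA2 (log2 fold change -0.71 ± 0.055) and LAMB2 (log2 fold change -0.45 ± 0.053), of which ITGA2 had the opposite order under all 3 herbs and LAMB2 under 1.

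Epithelial and mesenchymal genes went both ways. Of 50 genes tested in these classes, of 59 listed, 22 were higher in A549, 24 in Huh7 and 4 did not pass. CDH1, E-cadherin, was at 94.3, 87 and 83.4 CPM in A549 and 72.5, 75.5 and 70.9 in Huh7 (log2 fold change 0.27 ± 0.062), while CDH2, N-cadherin, was at 7.85, 8.47 and 8.29 CPM in A549 against 155, 167 and 158 in Huh7 (log2 fold change -4.26 ± 0.071). CD44, the hyaluronan receptor, was at 636, 586 and 571 CPM in A549 and 5.75, 4.48 and 6.32 in Huh7 (log2 fold change 6.70 ± 0.089), and AXL, a receptor kinase, at 516, 568 and 616 CPM in A549 against 1.75, 3.22 and 2.47 in Huh7 (log2 fold change 7.78 ± 0.13). FN1, fibronectin, which hepatocytes also secrete into plasma, was at 303, 248 and 224 CPM in A549 and 3469.5, 3329 and 3414 in Huh7 (log2 fold change -3.72 ± 0.093). VIM, vimentin, was within a small margin, at 1172, 1209 and 1233 CPM in A549 and 1295, 1410.1 and 1402 in Huh7 (log2 fold change -0.18 ± 0.04), TGFBI was higher in A549 (log2 fold change 1.40 ± 0.04), and CLDN1, a claudin of tight junctions, was higher in Huh7 (log2 fold change -2.18 ± 0.053). Of 27 targets of YAP and TEAD, all tested, 17 were higher in A549 and 7 in Huh7. MYOF (log2 fold change 3.80 ± 0.073), CRIM1 (log2 fold change 2.98 ± 0.043) and TEAD1 (log2 fold change 1.94 ± 0.038) were higher in A549. CCN2, a target widely used as a readout of YAP, was higher in Huh7, at 18.7, 14 and 14.1 CPM in A549 and 344, 399 and 393 in Huh7 (log2 fold change -4.61 ± 0.10), as were AJUBA (log2 fold change -0.89 ± 0.11) and NT5E (log2 fold change -0.45 ± 0.073). The order of CDH1 and VIM was the opposite in the libraries of 1 herb each, and that of NT5E in those of 2.

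Growth factor receptors and their ligands differed in both directions. Of 73 receptor tyrosine kinases and ligands, 60 were tested, 25 were higher in A549 and 23 in Huh7. EGFR was at 736, 718 and 725 CPM in A549 and 373, 364 and 373 in Huh7 (log2 fold change 0.97 ± 0.031), MET, the receptor of hepatocyte growth factor, at 601, 568 and 606 CPM in A549 against 319, 309.6 and 312 in Huh7 (log2 fold change 0.92 ± 0.037), and IGF1R at 638, 592 and 626 CPM in A549 against 188, 188 and 189.9 in Huh7 (log2 fold change 1.71 ± 0.038). All 3 were expressed in both lines and higher in A549. Among the fibroblast growth factor receptors, FGFR1 was at 181, 167 and 175 CPM in A549 and 14.7, 14.7 and 12 in Huh7 (log2 fold change 3.65 ± 0.082), whereas FGFR3 was at 4.24, 4.77 and 5.81 CPM in A549 against 272, 280.2 and 273 in Huh7 (log2 fold change -5.75 ± 0.078) and FGFR4 had a log2 fold change of -1.88 ± 0.048. NRG1, a ligand of ERBB3, was at 304, 314 and 316 CPM in A549 and 5.12, 5.61 and 4.66 in Huh7 (log2 fold change 5.90 ± 0.064). IGF2R, which clears IGF2, was higher in Huh7 (log2 fold change -1.25 ± 0.054), as was IGF2 itself.

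The HOX genes, which record position along the body axis, were parted by cluster. Of 39 listed, 31 had a row, 30 were tested, 18 were higher in A549 and 8 in Huh7, and 4, HOXA4, HOXA11 and HOXC5 among them, did not pass. All 9 HOXB genes tested were higher in A549, where they summed to between 107 and 116 CPM, against 0.179 to 0.607 CPM in Huh7, with 7 of the 9 at the floor there. HOXB6 was at 21.3, 21.5 and 21.2 CPM in A549 and 0, 0.119 and 0.243 in Huh7, HOXB3 at 19.1, 19.5 and 19.5 CPM in A549 against 0.0487, 0 and 0.0405 in Huh7, and HOXB9 at 20.8, 17 and 18.6 CPM in A549 against 0.146, 0 and 0.081 in Huh7. These genes are neighbours on chromosome 17 and are not independent of each other. In the HOXC cluster 6 of 8 were higher in Huh7 and 1 in A549, led by HOXC10 at 1.12, 1.95 and 2.57 CPM in A549 and 34.5, 34.8 and 36.5 in Huh7 (log2 fold change -4.10 ± 0.19). HOXC6 (log2 fold change -0.83 ± 0.19) and HOXC13 (log2 fold change -0.58 ± 0.18) followed with smaller differences. HOXD8 was at 4.36, 5.26 and 3.91 CPM in A549 and 0 CPM in each library of Huh7. The HOXA cluster was used in both lines, with 7 of 11 higher in A549 and 1 in Huh7, and HOXA3 at 43.2, 40.8 and 40.7 CPM in A549 against 29.6, 29 and 29.1 in Huh7. The order of HOXA3 and HOXC13 was the opposite in the libraries of 1 herb each, and the call of HOXC13 was lost without Huh7 replicate 3 (log2 fold change -0.44).

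**Figure D4:**
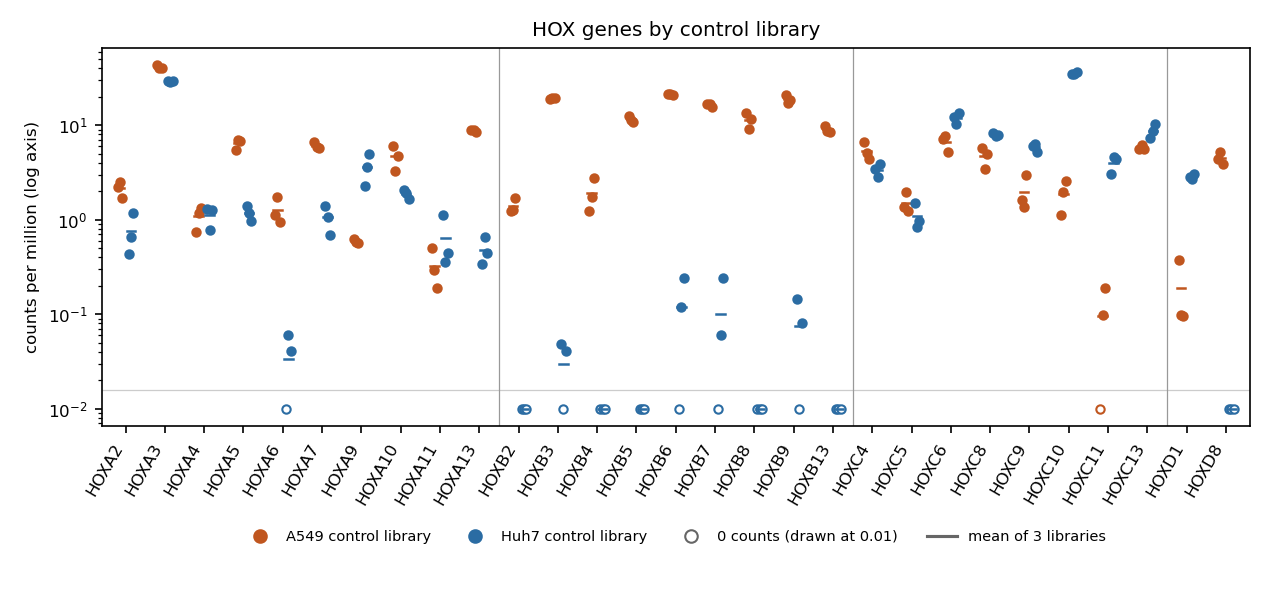
Level of 29 HOX genes in each control library, in CPM on a log axis, with 1 point per library, a line at the mean, open circles at 0.01 for 0 counts and grey lines between the HOXA, HOXB, HOXC and HOXD clusters. All HOXB genes were higher in A549, and HOXC10 was higher in Huh7.

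Other lineage factors went both ways, 24 of 56 tested being higher in A549 and 25 in Huh7 (71 listed). The even split depended on genes of low counts. Among the 30 with a mean of at least 50 counts, 9 were higher in A549 and 20 in Huh7. TBX18, a T-box factor of mesoderm, was at 81.1, 72.9 and 68 CPM in A549 and 0 CPM in each library of Huh7, at least 413-fold higher in A549. SOX6 was at 0.872, 0.195 and 0.763 CPM in A549 and 114, 106 and 103 in Huh7 (log2 fold change -7.22 ± 0.18), SOX4 at 42.2, 36.4 and 43.3 CPM in A549 against 311, 327 and 334 in Huh7 (log2 fold change -2.99 ± 0.065), and SOX9 at 100.3, 82.7 and 72.9 CPM in A549 against 299, 288 and 308 in Huh7 (log2 fold change -1.81 ± 0.092). SOX12 (log2 fold change 0.18 ± 0.048) and SIX5 (log2 fold change 0.52 ± 0.10) were slightly higher in A549. Of 20 Wnt target genes tested of 22 listed, 7 were higher in A549 and 9 in Huh7. LGR5, a receptor of R-spondins in stem cells, was at 0, 0.0974 and 0 CPM in A549 and 53.3, 51.5 and 57.5 in Huh7, while its relative LGR4 had a log2 fold change of 0.52 ± 0.051, with the opposite order under 2 herbs. CCND1 (log2 fold change 0.44 ± 0.043) and DKK1 (log2 fold change 1.34 ± 0.054) were higher in A549, and ZNRF3 (log2 fold change -0.86 ± 0.075) and BAMBI (log2 fold change -1.74 ± 0.089) in Huh7.

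Several of the loci known to be altered in A549 cells were lower there. CDKN2A, which encodes the p16 and p14ARF tumour suppressors at chr9:21967752-21995301, was at 0.249, 0 and 0 CPM in A549 and 69.1, 67.7 and 66.8 in Huh7. Its neighbour CDKN2B at chr9:22002903-22009305 was at 0 CPM in each library of A549 and 55.5, 51.5 and 59.1 CPM in Huh7, at least 148-fold higher in Huh7. MTAP, which lies next to them at chr9:21802636-21937651, was detected in both lines, at 23, 22.8 and 23.3 CPM in A549 and 80.9, 76.6 and 84.1 in Huh7 (log2 fold change -1.80 ± 0.07). Further out, DMRTA1 had a log2 fold change of -1.72 ± 0.16 and KLHL9 one of 1.62 ± 0.089, and ELAVL2 did not pass (log2 fold change -0.21 ± 0.45, adjusted p = 0.623). Of these 6 genes, CDKN2A and CDKN2B were at the floor in A549, and KLHL9 was higher in A549. SMARCA4, the ATPase of the SWI/SNF remodeller, was at 22.9, 26.5 and 27.5 CPM in A549 and 259, 262 and 269.5 in Huh7 (log2 fold change -3.35 ± 0.063, adjusted p = 5.88e-11). STK11 (log2 fold change -0.95 ± 0.09) was also lower in A549. KEAP1 was at 73.3, 81.3 and 75.5 CPM in A549 and 78.8, 79 and 80.8 in Huh7 and did not pass (log2 fold change -0.052 ± 0.058, adjusted p = 0.435).

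Of 39 genes of cell cycle arrest, DNA repair and cell death, 38 had a row and were tested, 22 were higher in A549, 8 were higher in Huh7 and 8 did not pass, with a median log2 fold change of 0.52. CDKN1A, the p21 inhibitor of cell cycle kinases, was at 67.5, 74.8 and 92 CPM in A549 and 14.6, 10.3 and 12.2 in Huh7 (log2 fold change 2.64 ± 0.15). PLK2 was at 162, 190.4 and 167 CPM in A549 against 12.4, 13.3 and 11 in Huh7 (log2 fold change 3.82 ± 0.091). Both were higher in each A549 library. TNFRSF10B (log2 fold change 0.49 ± 0.057) and CCNG1 (log2 fold change 0.35 ± 0.045) were higher in A549 by smaller margins, and APAF1 (log2 fold change -0.84 ± 0.061) and XPC, of DNA repair, (log2 fold change -0.40 ± 0.14) were higher in Huh7. The order of XPC was the opposite under all 3 herbs, and its call was lost without Huh7 replicate 2 (log2 fold change -0.34). MDM2, a ubiquitin ligase, was at 271, 278 and 269.9 CPM in A549 and 301, 296 and 293 in Huh7 (log2 fold change -0.12 ± 0.034), a small difference whose order was the opposite in the treated libraries of all 3 herbs.

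Inflammatory and interferon genes went both ways, 30 of 65 tested being higher in A549, 20 in Huh7 and 15 not passing (88 listed, 68 with a row). ICAM1, an adhesion molecule for leukocytes, was at 0.374, 0.195 and 1.33 CPM in A549 and 130.2, 119 and 137 in Huh7 (log2 fold change -7.35 ± 0.23), and CCL20, a chemokine, at 0.997, 1.85 and 1.24 CPM in A549 against 77.6, 73.1 and 75.2 in Huh7 (log2 fold change -5.63 ± 0.14). Towards A549, CXCL5 was at 187, 188 and 176 CPM in A549 against 40.8, 43.7 and 38.7 in Huh7 (log2 fold change 2.16 ± 0.059), and OAS3, a sensor of double-stranded RNA, at 141, 145 and 159.7 CPM in A549 against 15.8, 17.1 and 18.7 in Huh7 (log2 fold change 3.10 ± 0.08). B2M, the light chain of class I molecules, was higher in Huh7 (log2 fold change -0.53 ± 0.046). The class I genes themselves lie in the major histocompatibility complex and are uncertain here.

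The main drug exporters differed in opposite directions. Of 23 ABC transporters, 22 were tested, 9 were higher in A549, 12 in Huh7, and ABCB9 did not pass. ABCB1, the P-glycoprotein, was at 3.49, 0.779 and 1.05 CPM in A549 and 154, 144 and 154 in Huh7 (log2 fold change -6.41 ± 0.23, adjusted p = 4.16e-09). ABCC1 was at 200.3, 195 and 163 CPM in A549 and 5.65, 4.42 and 8.83 in Huh7 (log2 fold change 4.81 ± 0.18, adjusted p = 6.59e-09). The groups did not overlap for either gene. ABCC2 was high in both, at 894, 800.2 and 842 CPM in A549 and 483, 458 and 471 in Huh7. The cholesterol exporter ABCA1 (log2 fold change -2.69 ± 0.049) and the peroxisomal ABCD3 (log2 fold change -1.03 ± 0.042) were higher in Huh7.

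Genes that dividing cells share differed less than the transcriptome. Of 94 cell division genes, all tested, 34 were higher in A549 and 35 in Huh7, shares of 36.2% and 37.2% that lie beside the background, and their median absolute log2 fold change was 0.44 against 0.74 for all genes. TOP2A (log2 fold change 1.08 ± 0.031), ECT2 (log2 fold change 0.94 ± 0.039) and NCAPD2 (log2 fold change 0.53 ± 0.038, with the opposite order under 1 herb) were higher in A549, and TPX2 (log2 fold change -0.47 ± 0.036), HELLS (log2 fold change -0.83 ± 0.038) and MCM2 (log2 fold change -0.90 ± 0.045) in Huh7. For 79 ribosomal protein genes, 36 were higher in A549 and 31 in Huh7, with a median absolute log2 fold change of 0.39. RPS16 (log2 fold change 1.11 ± 0.038), RPL13A (log2 fold change 0.69 ± 0.036) and RPS2 (log2 fold change 0.16 ± 0.037) stood on the side of A549 and RPSA (log2 fold change -0.66 ± 0.039) and RPL15 (log2 fold change -0.83 ± 0.031) on that of Huh7. Many ribosomal protein genes have processed pseudogenes that share their reads. Among 29 reference genes, 28 passed in one direction or the other, and only POLR2A did not. ACTB, beta-actin, was close, at 5654, 5577 and 5864 CPM in A549 and 6102, 6215 and 6042 in Huh7 (log2 fold change -0.10 ± 0.029), EEF1A1 had a log2 fold change of -0.38 ± 0.034, YWHAZ one of 1.06 ± 0.03 and GPI one of 1.63 ± 0.042.

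All but 1 of the 13 mitochondrially encoded genes were higher in A549, with a median log2 fold change of 0.64. MT-CO1 had a log2 fold change of 0.49 ± 0.046, MT-CO2 one of 0.81 ± 0.11, MT-CO3 one of 0.96 ± 0.07 and MT-ND1 one of 1.51 ± 0.087, and MT-ND6, which is read from the other strand, did not pass (log2 fold change 0.13 ± 0.14, adjusted p = 0.429). These genes share a genome and long primary transcripts, and their summed share of counts moved with the line as given above. Metallothioneins, which bind zinc and copper, were on the side of Huh7. Of 12 genes listed, 10 were tested, 8 were higher in Huh7, SLC30A1 was higher in A549, MT1A did not pass and 4 were at the floor in A549. MT1E was at 0 CPM in each library of A549 and 63.2, 62.1 and 59.1 CPM in Huh7, at least 165-fold higher in Huh7, and MT1G at 0 CPM in each library of A549 against 18.1, 19.8 and 18.7 in Huh7. MT2A was expressed in both, at 27.7, 30 and 32 CPM in A549 and 42.5, 42.1 and 40.5 in Huh7 (log2 fold change -0.48 ± 0.08). The MT1 genes are close copies and share reads.

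The differences were not spread evenly over the chromosomes. Against 36.9% of all genes higher in A549, on chromosome 14, 297 of 460 genes tested were higher in A549 and 73 in Huh7, with a median log2 fold change of 0.60. Chromosomes X (median 0.38, 270 of 511 higher in A549), 17 (median 0.36, 454 of 854) and 8 (median 0.31, 246 of 479) leaned the same way. Chromosome 22 leaned most towards Huh7, with a median of -0.50 and 193 of 333 genes higher in Huh7, followed by chromosome 4 with -0.38 and chromosome 3 with -0.34. Among genes with at least 50 counts in each line the medians were 0.63 on chromosome 14 and -0.55 on chromosome 22. In the treated libraries the median of chromosome 14 was 0.62, 0.61 and 0.58, that of chromosome 17 0.42, 0.36 and 0.58 and that of chromosome 22 -0.51, -0.47 and -0.18 under B. chinense, P. chinensis and P. umbellatus. Gene copy number was not measured in these data.

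**Figure D5:**
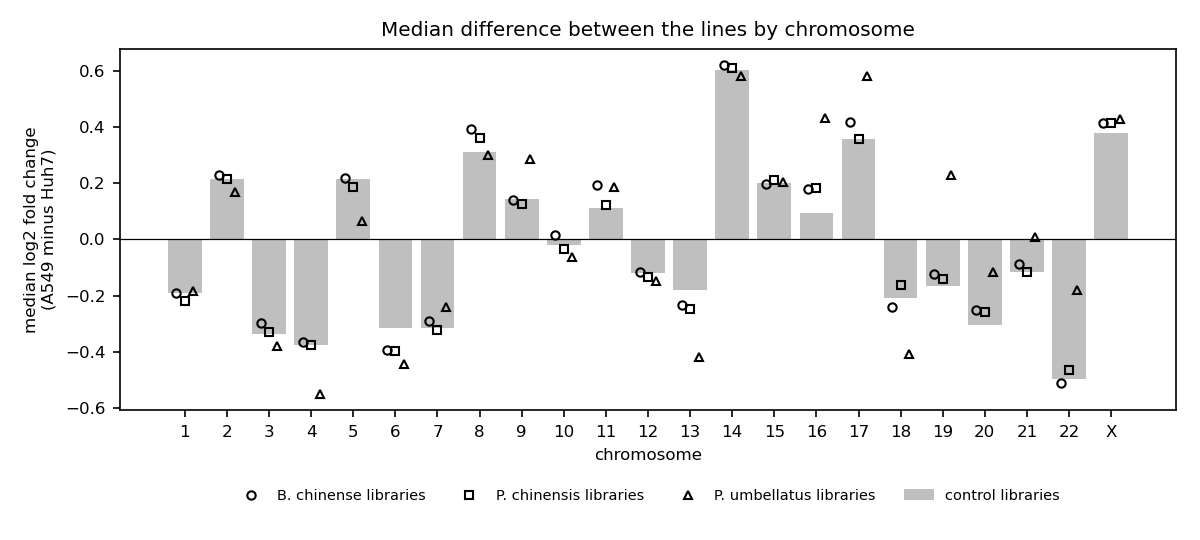
Median log2 fold change, A549 minus Huh7, of the genes of each chromosome in the control libraries (bars) and in the libraries of each herb (symbols). The bars of chromosomes 14 and 22 are the highest and lowest, at 0.60 and -0.50.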

How the data were processed

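RNA was extracted with a spin-column kit, depleted of ribosomal RNA, made into stranded libraries and sequenced as paired reads by the authors, who quantified transcripts of Ensembl release 108 (GRCh38.p13) with kallisto. The deposited table holds estimated counts per protein-coding gene, given as whole numbers and not normalized, and the authors kept genes with a mean above 5 counts. It has 24 columns of 8 groups of 3, of which the 6 control columns entered the comparison. Of 14585 rows, 14583 had a gene symbol.

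Genes whose mean over the 6 control columns exceeded 5 counts (14398) were fitted in R 4.3.3 with edgeR 4.0.16 (TMM normalization, quasi-likelihood F test, prior count 2), with Benjamini-Hochberg adjustment across all genes tested and a threshold of 0.05. The SE was the absolute log2 fold change, fitted without the prior count, divided by the square root of F. For genes with few counts in a line it is not a reliable error. Counting intervals of ratios are exact at 95%. DESeq2 1.42.0, limma 3.58.1 and other filters, scalings, thresholds and subsets of libraries were run as alternatives. The steps were tested on simulated data. Gene positions are from GENCODE release 44 (GRCh38) and promoters from RefSeq.

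The members and gene lists were chosen with earlier results of these data known. Genes were named by a rule: the line markers, the altered genes, the 3 members of highest mean CPM per list and direction among those that passed, the 10 of highest CPM detected in 1 line, the 10 largest changes in each direction with a mean of at least 50 counts in both lines, and small lists in full. ABCA3, AHSG, AMBP, CDH1, CDH2, CDKN1A, FGF19, FGFR1, FGFR3, GCLM, GPC3, GPX2, HK1, LDHA, LGR5, LIPC, MASP1, NR0B1, NR0B2, NR1H4, NRG1, PECAM1, PFKL, PFKM, PFKP, PLAU, POLR2A, PROZ, RBP4, SFTPB, SLC27A2, TF, TRIM71, TTR and TXNRD1 were chosen after their values were seen. Kallisto divides reads between near-identical copies, so values of such families are uncertain, and a listed 0 can be a failed estimate. Results for some genes are not reported here.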

Additional observations from a re-analysis of the deposited data

Results flagged for a closer look

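Some genes had 1 order of the lines in the control libraries and the opposite order in the libraries of a herb, every library of a line being on one side each time. The differences between control and herb libraries were not tested. All values are on the log2 scale, A549 minus Huh7, in 3 against 3 libraries. Baseline values, with SE, are from the fit of the 6 control libraries. Values under a herb are log2 ratios of mean CPM, with normalization over all 24 libraries, so the measures are not the same.

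MDM2, slightly lower in A549 at baseline (-0.12 ± 0.034), was higher in A549 by 1.6 under B. chinense, 2.28 under P. chinensis and 1.17 under P. umbellatus. XPC (-0.40 ± 0.14 at baseline) was at 0.32, 0.46 and 0.31 under the same herbs. ITGA2 (-0.71 ± 0.055 at baseline) was at 0.77, 1.34 and 0.66.

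NT5E (-0.45 ± 0.073 at baseline) was at 0.18 under B. chinense and 0.85 under P. chinensis, and KRT19 (-0.86 ± 0.15) at 0.48 under B. chinense and 0.87 under P. umbellatus. LGR4 (0.52 ± 0.051) was at -0.32 under P. chinensis and -0.21 under P. umbellatus. Under B. chinense alone, VIM (-0.18 ± 0.04) was at 0.059, HOXC13 (-0.58 ± 0.18) at 0.53 and NCAPD2 (0.53 ± 0.038) at -0.24. Under P. chinensis alone, CDH1 (0.27 ± 0.062) was at -0.38 and HOXA3 (0.50 ± 0.072) at -0.39. Under P. umbellatus alone, LAMB2 (-0.45 ± 0.053) was at 0.64.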

How the results depend on the processing

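No alternative called a gene in the opposite direction from the reported fit, and A549 took between 47.7% and 51.6% of the calls. Requiring a log2 fold change of at least 1 left 2748 genes higher in A549 and 2765 higher in Huh7, and testing against a log2 fold change of 1 with glmTreat left 2253 and 2198. Leaving out each library in turn gave 5069 to 5268 genes higher in A549 and 5064 to 5359 higher in Huh7, and 199 to 221 and 267 to 306 genes detected in 1 line. With at least 10 counts in place of 50 in the expressing line these were 361 and 500. With the replicate number as a block, 5120 and 5244 genes passed, of which 10293 had passed in the same direction without it. Deviations of same-numbered libraries from their group means correlated at 0.010, 0.014 and 0.00023. Each deviation is from a mean of 3 libraries, so these correlations cannot show whether same-numbered libraries shared a day or run. The fit over all 24 libraries moved the median of all genes most, by -0.043.

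Among the named genes, ELAVL2 turned to 0.098 with Huh7 thinned to the A549 depth and MT-ND6 to -0.059 without A549 replicate 2 (0.27 at most with another library left out), neither being called. POLR2A passed only with the block. Of 139 calls of named genes lost under an alternative, most were lost to the 2 requirements on size, and the rest included that of MDM2, whose change is small. Of the list medians under the alternatives, 39 moved by at least the spread of the list's median level between replicate libraries, and 568 did not. The median of the lung epithelium list turned from -0.78 to 1.69 with a mean of at least 50 counts, since fewer members were tested. At the same setting the median of the other lineage factors moved from -0.30 to -1.72. Depth limits the genes near the floor, where A549 has the fewer counts.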
